A study of Mus musculus with 12 samples.

Results

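Cohesin is the ring-shaped protein complex that holds sister chromatids together and folds interphase chromatin into loops. The genes described here encode its subunits Smc1a, Smc3, Rad21, Stag1 and Stag2, its regulators Pds5a and Pds5b, its loader Nipbl, and Ctcf, the zinc finger protein at which cohesin loops commonly stop. They were chosen by name, as the entries of the array table whose gene symbol is on this list of 9. The table of 18138 gene symbols held 7 of them. Of those, 6 were detected on at least 3 arrays and were tested, among 8247 tested genes in all. Pds5a and Pds5b have no entry under these symbols. The table lists Aprin, a RefSeq synonym of Pds5b, and its values are given beside the members and outside their counts.

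RNA came from thymic T cells of C57BL6/J mice aged 8 to 12 weeks, males and females mixed in equal parts per the labels. Cells positive for CD4 and CD8 and gated for low forward scatter were sorted as CD71-positive or CD71-negative. CD71 is the transferrin receptor, which dividing cells display. Donors were wild type (Caph2+/+) or carried Caph2 nes/nes, the I15N change in Ncaph2, a subunit of condensin II, the complex that compacts chromosomes for mitosis. The genotype label is that of the mice, and no restriction of the allele to a cell type is given. Genotype and CD71 status together make 4 groups of 3 arrays each. Whether those 3 stand for different mice is not stated in the labels, so a p-value here reflects the variation among the arrays, which could be technical only.

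In the cohesin ring, Smc1a and Smc3 form the long arms with the ATPase heads, and Rad21, the kleisin, closes the ring. Stag1 or Stag2 binds the kleisin, Nipbl with its partner Mau2 puts the ring on DNA, and Pds5a and Pds5b regulate its release and its acetylation. In thymocytes positive for CD4 and CD8, cohesin and Ctcf are known for organising the T-cell receptor alpha locus, which rearranges at that stage.

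The windows around the annotated start sites of Smc1a, Ctcf and Pds5b are shown because the signals listed under Smc1a, Ctcf and Aprin were higher in CD71-positive cells. Each runs from 250 bases before the start to 50 after it, in RefSeq's promoter entries for GRCm38.p6, on the plus strand in all 3 cases. The positions are chrX:152016178-152016477 for Smc1a, chr8:105636288-105636587 for Ctcf and chr5:150673577-150673876 for Pds5b. Capitals mark TTGGCGC or TTCCCGC, both E2F-type cores, read on either strand.
Smc1a: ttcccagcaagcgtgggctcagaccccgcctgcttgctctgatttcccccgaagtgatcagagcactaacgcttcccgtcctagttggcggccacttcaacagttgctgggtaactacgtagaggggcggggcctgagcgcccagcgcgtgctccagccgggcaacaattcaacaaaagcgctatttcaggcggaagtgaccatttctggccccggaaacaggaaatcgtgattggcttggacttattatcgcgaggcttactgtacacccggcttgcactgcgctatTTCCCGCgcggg
Ctcf: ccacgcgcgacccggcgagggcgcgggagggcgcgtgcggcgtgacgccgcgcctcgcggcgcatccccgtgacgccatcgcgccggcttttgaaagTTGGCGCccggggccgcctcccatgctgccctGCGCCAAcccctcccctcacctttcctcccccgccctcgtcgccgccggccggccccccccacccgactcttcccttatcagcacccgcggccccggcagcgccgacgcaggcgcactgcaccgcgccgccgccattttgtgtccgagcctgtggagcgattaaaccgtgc
Pds5b: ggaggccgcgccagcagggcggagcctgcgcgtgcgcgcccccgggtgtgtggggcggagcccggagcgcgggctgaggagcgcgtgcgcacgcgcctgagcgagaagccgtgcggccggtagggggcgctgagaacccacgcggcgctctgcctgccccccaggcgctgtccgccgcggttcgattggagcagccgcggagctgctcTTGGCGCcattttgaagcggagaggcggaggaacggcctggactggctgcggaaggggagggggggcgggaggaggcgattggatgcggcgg
The Smc1a window held 1 TTCCCGC, beginning at position 39, where position 1 is the first transcribed base and -1 the base before it. The Ctcf window held TTGGCGC once on each strand, beginning at -153 and -121. The Pds5b window held 1 TTGGCGC, beginning at -42. Promoter entries were found for 6 of the 9 genes and were missing for Rad21, Stag2 and Nipbl. Of the 6 windows, 5 held at least 1 of these motifs, namely all but that of Smc3. Stag1, whose signal was not detected, and Pds5a, which has no signal here, were among the 5. Of all 32851 windows of this length in the table, 2.45% held TTGGCGC, 4.60% held TTCCCGC and 6.81% held either. The 6 windows consisted of G and C to 58.3% to 80.3%, and the shares over all windows were not matched for this. The CCAAT box was also counted and lay in 3 of the 6 windows against 37.4% of all, and TTTGAA, the core of the cell cycle homology region, in 2 of the 6 against 17.9%. The motifs were chosen after the letters had been seen, so these shares are a description and no site of binding is read from them.

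Across the 12 arrays the mean signal lay between 95.1 and 203, a 2.13-fold range, and 5893 to 7415 genes were detected on an array (detection p under 0.05). Ncaph2, the mutated gene, differed by -0.11 (SE 0.16) between genotypes in CD71-negative and by -0.04 (SE 0.16) in CD71-positive cells on the log2 scale. Its array signal says nothing of a missense change. Tfrc, which encodes CD71, was higher in CD71-positive cells by 1.15 (adjusted p = 0.0143) in wild type and by 1.30 (adjusted p = 0.00679) in mutant. All levels below are normalized log2 signals, all differences are in log2 units, and an adjusted p under 0.05 counts as passing. Levels are not compared between genes, since each gene has its own probe response.

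CD71-positive cells carried more Smc1a, Stag2 and Ctcf RNA signal and less Nipbl signal than CD71-negative cells, in both genotypes. The differences in wild type were 1.45 for Smc1a (2.74-fold), 0.92 for Stag2 (1.89-fold), 0.81 for Ctcf (1.76-fold) and -0.87 for Nipbl (1.82-fold lower). In mutant cells they were 1.62, 0.98, 0.76 and -0.83. Of the 6 tested members, 3 were higher and 1 was lower in each genotype. Over all tested genes, 12.0% were called higher and 13.1% lower in wild type, and 14.5% higher and 14.3% lower in mutant. The median difference of the 6 members was 0.47 in wild type and 0.41 in mutant, against -0.0069 and -0.0083 over all tested genes. When the arrays were only centred on their medians, which leaves the spread of signals different between arrays, 0 of 6 members passed in either genotype, while 709 genes passed in wild type and 932 in mutant. In a bulk sample, a smaller share of cells with a transcript and less of it per cell cannot be told apart.

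**Figure D1:**
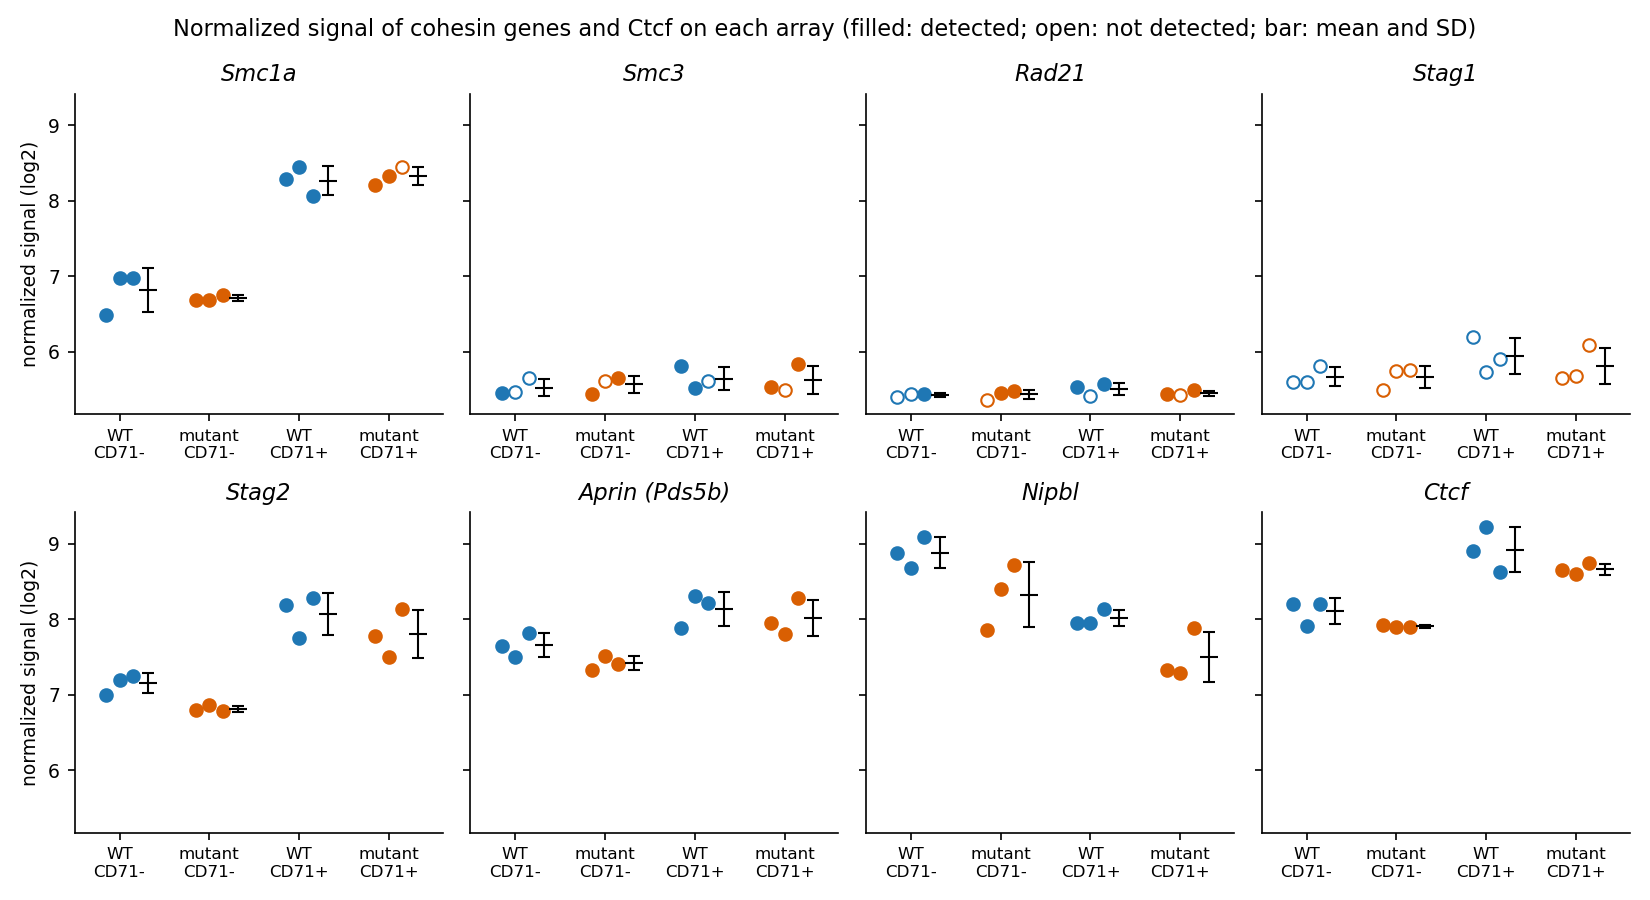
Normalized log2 signal (vertical axis) of each gene on each of the 12 arrays, by group (horizontal axis); blue points are wild type, orange points mutant, filled points detected and open points not detected, and bars give the mean and SD of 3 arrays. Smc1a, Stag2 and Ctcf lie higher and Nipbl lower in CD71-positive cells, while Smc3, Rad21 and Stag1 lie near the bottom of the scale in every group.

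Smc1a had the highest difference of the 6. In wild type its level was 6.48, 6.98 and 6.99 on the CD71-negative arrays and 8.29, 8.44 and 8.07 on the CD71-positive arrays. In mutant it was 6.68, 6.69 and 6.76 on the CD71-negative arrays and 8.21, 8.33 and 8.45 on the CD71-positive arrays. Every CD71-positive array lay more than 1 log2 unit above every CD71-negative array. The difference was 1.45 (SE 0.14, 95% interval 1.13 to 1.77, adjusted p = 9.51e-05) in wild type and 1.62 (SE 0.14, 1.30 to 1.94, adjusted p = 4.4e-05) in mutant. It ranked as the 190th highest of 8247 differences in wild type and the 164th in mutant. The signal before normalization was separated only within each genotype. It ran from 108 to 318 on CD71-negative arrays and 339 to 616 on CD71-positive arrays in wild type, and from 175 to 280 and 287 to 574 in mutant. Across genotypes, wild-type CD71-negative array 3, at 318, lay above mutant CD71-positive array 2, at 287. On mutant CD71-positive array 3 the deposited detection p was 0.0794 although the signal, 574, was the second highest of the 12, so this gene counts as detected on 11 arrays. With median centring the difference was 1.28 in wild type (adjusted p = 0.0717) and 1.34 in mutant (adjusted p = 0.0523), and in the authors' processed values it was 0.99 and 1.05 (adjusted p = 0.000182 and 0.000113).

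Smc3, the other arm of the ring, and Rad21 were close to the lower end of the scale. Smc3 was detected on 7 of 12 arrays, with a signal before normalization of 76.5 to 168, or 1.02 to 1.67 times the array's median. Its normalized level ran from 5.46 to 5.66 in wild-type CD71-negative, 5.52 to 5.82 in wild-type CD71-positive, 5.44 to 5.66 in mutant CD71-negative and 5.50 to 5.84 in mutant CD71-positive cells. All 4 ranges overlapped. The CD71 difference was 0.12 (95% interval -0.13 to 0.37, adjusted p = 0.493) in wild type and 0.06 (-0.20 to 0.31, adjusted p = 0.761) in mutant. Rad21 was also detected on 7 arrays, at 0.905 to 1.20 times the array's median, and its levels spanned only 5.37 to 5.57. Its CD71 difference was 0.08 (-0.02 to 0.18, adjusted p = 0.256) in wild type and 0.02 (-0.08 to 0.11, adjusted p = 0.838) in mutant. The lowest normalized level of any gene was 5.33, and the offset of 16 added before the log compresses changes this near to it, so these intervals do not bound the change in RNA. With the background estimated from dim genes, the wild-type differences were 0.45 for Smc3 (adjusted p = 0.353) and 0.41 for Rad21 (adjusted p = 0.201), both above the intervals given. Without wild-type CD71-positive array 1 that of Smc3 was 0.04.

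**Figure D2:**
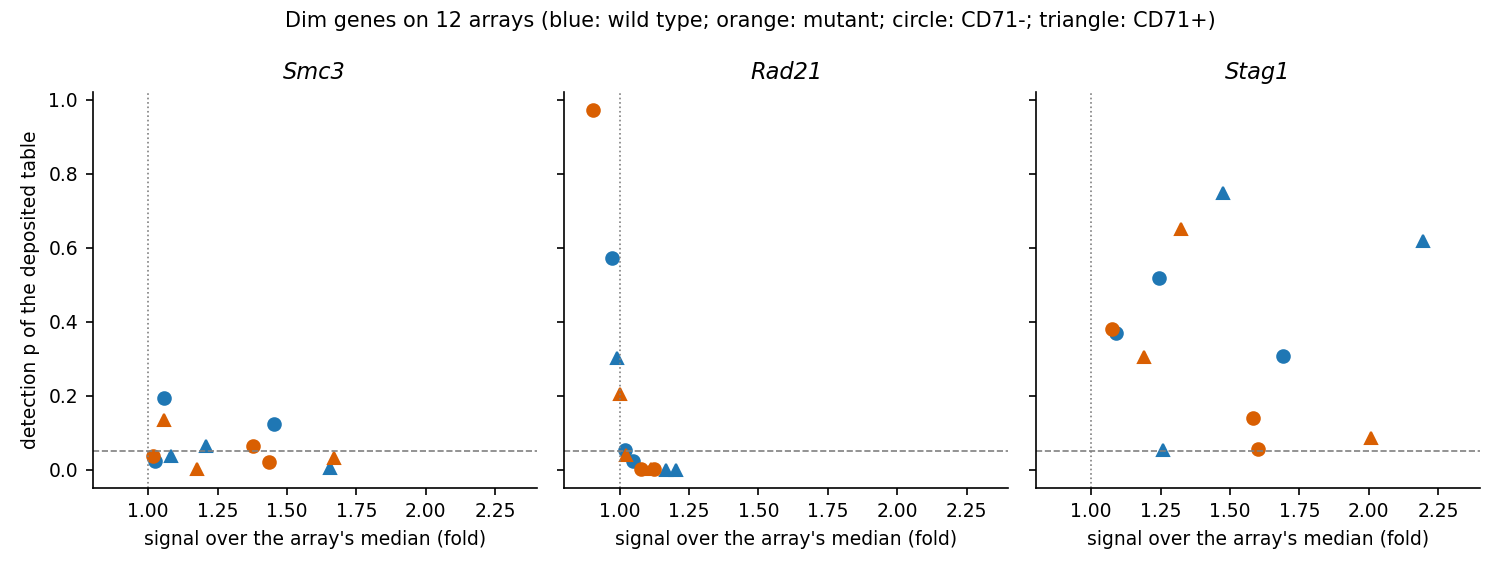
Detection p of the deposited table (vertical axis) against signal as a fold of the array's median (horizontal axis) for Smc3, Rad21 and Stag1 on 12 arrays; blue is wild type, orange mutant, circles CD71-negative and triangles CD71-positive, with dashed lines at a detection p of 0.05 and dotted lines at the median. Rad21 lies between 0.905 and 1.20 times the median, and Stag1 has no array under a detection p of 0.05 although its signal reaches 2.20 times the median.

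The kleisin-binding subunits could be compared only through Stag2. Its level in wild type was 7.0, 7.20 and 7.25 on CD71-negative arrays and 8.19, 7.75 and 8.28 on CD71-positive arrays. In mutant it was 6.80, 6.86 and 6.79 on CD71-negative arrays and 7.78, 7.50 and 8.13 on CD71-positive arrays. No CD71-positive array fell within the CD71-negative range, and the CD71-positive arrays were the more scattered, with an SD of 0.28 and 0.32 (n = 3) against 0.13 and 0.04. The difference was 0.92 (SE 0.17, 95% interval 0.54 to 1.31, adjusted p = 0.00372) in wild type and 0.98 (SE 0.17, 0.60 to 1.37, adjusted p = 0.00233) in mutant. Before normalization the ranges overlapped, with 124 to 361 on wild-type CD71-negative and 251 to 581 on wild-type CD71-positive arrays. With median centring the difference was 0.78 (adjusted p = 0.393) and 0.64 (adjusted p = 0.422), and in the authors' processed values 0.63 (adjusted p = 0.0132) and 0.58 (adjusted p = 0.0172).

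Stag1, the alternative to Stag2, was detected on 0 of 12 arrays, with detection p between 0.0546 and 0.747. It was therefore not tested and no difference is given. Its signal of 81.1 to 223 was 1.07 to 2.20 times the array's median. The deposited detection p did not follow the signal strictly. Its normalized level, given only as a description, was 5.60, 5.60 and 5.81 in wild-type CD71-negative, 6.20, 5.73 and 5.90 in wild-type CD71-positive, 5.50, 5.75 and 5.75 in mutant CD71-negative and 5.66, 5.68 and 6.09 in mutant CD71-positive cells, and these ranges overlapped between the subsets of each genotype.

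For the Pds5 pair, the only reading is the entry Aprin, detected on all 12 arrays. In wild type its level was 7.64, 7.50 and 7.82 on CD71-negative and 7.89, 8.31 and 8.22 on CD71-positive arrays. In mutant it was 7.32, 7.51 and 7.41 on CD71-negative and 7.96, 7.81 and 8.28 on CD71-positive arrays. These normalized levels did not overlap between the subsets of either genotype. The signal before normalization did, with 152 to 466 on CD71-negative and 317 to 500 on CD71-positive arrays in wild type, and 216 to 396 and 229 to 527 in mutant. The difference of 0.48 (SE 0.14, adjusted p = 0.0375) in wild type passed in only 9 of 24 alternative analyses, and the arrays whose removal ended the call were wild-type CD71-negative 1 and 2, wild-type CD71-positive 2 and 3, mutant CD71-negative 2 and 3 and mutant CD71-positive 1, with adjusted p from 0.0518 to 0.120. The difference of 0.60 (SE 0.14, adjusted p = 0.0128) in mutant passed in 22 of 24, the exceptions being the authors' processed values (0.34, adjusted p = 0.0584) and median centring (0.28, adjusted p = 0.616).

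Nipbl, the loader, was the member with the opposite direction. Its level in wild type was 8.87, 8.68 and 9.09 on CD71-negative arrays and 7.95, 7.96 and 8.13 on CD71-positive arrays, with no overlap. In mutant it was 7.86, 8.41 and 8.72 on CD71-negative arrays and 7.32, 7.29 and 7.88 on CD71-positive arrays. Mutant CD71-positive array 3, at 7.88, lay just above mutant CD71-negative array 1, at 7.86, so the mutant subsets overlapped. Before normalization the subsets overlapped in both genotypes. The signal was 239 to 868 on CD71-negative and 275 to 516 on CD71-positive arrays in wild type, and 266 to 714 and 189 to 427 in mutant. The difference was -0.87 (SE 0.23, 95% interval -1.38 to -0.35, adjusted p = 0.0216) in wild type and -0.83 (SE 0.23, -1.34 to -0.32, adjusted p = 0.0231) in mutant. It was negative in 24 of 24 alternative analyses for each genotype, and passed in 18 of them in wild type and 17 in mutant. In wild type the call was lost without CD71-negative array 1 (adjusted p = 0.0549) or 3 (0.0658) and without CD71-positive array 1 (0.0673) or 2 (0.0620), and with median centring (0.324). In mutant it was lost without CD71-negative array 2 (adjusted p = 0.0713) or 3 (0.0767), without CD71-positive array 1 (0.0805) or 2 (0.0817), with only the 6 mutant arrays in the fit (0.0909) and with median centring (0.147). Without the 2 arrays of lowest mean signal, wild-type CD71-negative 1 and mutant CD71-positive 2, an alternative chosen after the data had been seen, the adjusted p was 0.0692 in wild type and 0.109 in mutant.

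Ctcf was higher in CD71-positive cells. In wild type it read 8.21, 7.91 and 8.21 on CD71-negative arrays and 8.91, 9.23 and 8.63 on CD71-positive arrays. In mutant it read 7.92, 7.89 and 7.90 on CD71-negative arrays and 8.66, 8.60 and 8.74 on CD71-positive arrays. The subsets did not overlap, and the mutant CD71-negative arrays agreed within an SD of 0.01 (n = 3). In the signal before normalization they did overlap, with 183 to 558 on CD71-negative and 465 to 876 on CD71-positive arrays in wild type. The mutant signal was 272 to 475 and 330 to 681. The difference was 0.81 (SE 0.14, 95% interval 0.51 to 1.12, adjusted p = 0.00208) in wild type and 0.76 (SE 0.14, 0.45 to 1.06, adjusted p = 0.00274) in mutant. With median centring it was 0.80 (adjusted p = 0.163) in wild type and 0.52 (adjusted p = 0.345) in mutant.

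**Figure D3:**
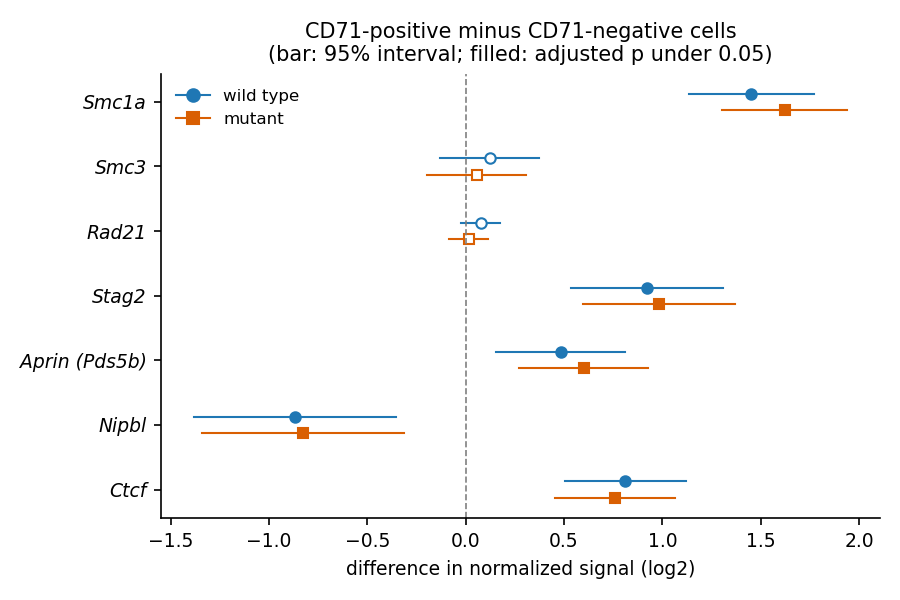
Difference in normalized log2 signal between CD71-positive and CD71-negative cells (horizontal axis) for each tested gene, with 95% intervals; blue circles are wild type, orange squares mutant, and filled symbols passed at an adjusted p under 0.05. Smc1a has the highest value, 1.45 in wild type and 1.62 in mutant, Nipbl lies below 0, and Smc3 and Rad21 lie near 0.

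Because every array carries all the genes, the change of a pair relative to each other can be read within arrays. From CD71-negative to CD71-positive cells, Smc1a shifted against Nipbl by 2.32 in wild type and 2.45 in mutant, and Stag2 shifted against Nipbl by 1.79 and 1.81. Nipbl shifted against Ctcf by -1.68 and -1.59. For each of these pairs the 6 CD71-positive arrays did not overlap the 6 CD71-negative arrays. Smc1a shifted against Ctcf by 0.64 and 0.86, also without overlap. Stag2 and Ctcf shifted against each other by only 0.11 and 0.23, and their arrays overlapped. Smc1a against Stag2 shifted by 0.53 and 0.64, again with overlapping arrays. Smc1a shifted against Aprin by 0.97 and 1.02, and Nipbl against Aprin by -1.35 and -1.43, both without overlap. Stag2 against Aprin shifted by 0.44 and 0.38, and Ctcf against Aprin by 0.33 and 0.16, with overlapping arrays. The pairs with Nipbl set genes that moved in opposite directions. All these shifts rest on the same arrays as the differences above, and the share of non-overlapping pairs over all genes was not computed.

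Other genes of the cohesin cycle, of the related condensin and Smc5/6 complexes and of Ctcf's partners were taken as a list of 40, with 32 found on the array and 27 past the detection filter. In wild type 12 were higher and 3 lower in CD71-positive cells, and in mutant 13 were higher and 3 lower. Over all tested genes, 12.0% were higher and 13.1% lower in wild type, and 14.5% higher and 14.3% lower in mutant. The 3 lower of 27 are near that share, so no excess of lower genes is read from the list. Centring on array medians alone left 9 higher and 2 lower in wild type and 8 higher and 1 lower in mutant, and under each of the 24 alternatives all 15 genes called in wild type and all 16 called in mutant kept their sign. Among genes that act on the ring, Esco2, which acetylates Smc3 in S phase, was higher by 1.98 (adjusted p = 3.57e-05) in wild type and 1.62 (adjusted p = 9.46e-05) in mutant. Cdca5, the cohesion protector sororin, was higher by 1.57 (adjusted p = 0.00114) and 1.38 (adjusted p = 0.00208). Esco1, the other acetyltransferase, and Hdac8, the Smc3 deacetylase, did not pass, with differences of -0.03 and 0.05 in wild type and -0.07 and -0.01 in mutant. Both read at most 5.57 on any array, near the lower end of the scale, where the offset compresses changes. Their differences therefore do not bound the change in RNA. Espl1, the separase that cuts Rad21 at anaphase, was detected on no wild-type CD71-negative array and was at least 1.79-fold higher in wild-type CD71-positive cells (adjusted p = 0.00036). In mutant its difference was 0.82 (adjusted p = 0.000392). Chtf18, part of the clamp loader for cohesion at replication forks, was higher by 1.24 and 1.46. Esco2, Cdca5, Espl1 and Chtf18 read at most 5.60 on CD71-negative arrays, near the lower end of the scale. The offset compresses their differences too, so these are not the size of the change in RNA.

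The loader partner Mau2, listed as 9130404D08Rik, was lower in CD71-positive cells, as was Nipbl. Mau2 levels ran from 5.59 to 6.11, low on the scale, where the offset compresses changes. The difference was -0.36 (SE 0.05, adjusted p = 0.000472) in wild type and -0.24 (SE 0.05, adjusted p = 0.00373) in mutant, and the arrays of the subsets did not overlap in either genotype. The mutant call was lost with cyclic loess (-0.18, adjusted p = 0.118) and with median centring (-0.24, adjusted p = 0.125). Of the 7 entries for Ctcf relatives and partners, 4 were tested and 2 passed, both lower. Ldb1, a cofactor that joins enhancers and promoters, differed by -1.45 (adjusted p = 0.00224) in wild type and -1.11 (adjusted p = 0.00862) in mutant. Chd8, a chromatin remodeller reported to bind Ctcf, differed by -0.38 (adjusted p = 0.0336) and -0.61 (adjusted p = 0.00277). The wild-type call for Chd8 was made in 13 of 24 alternatives. It was lost without CD71-negative array 2 (adjusted p = 0.110) or 3 (0.0718) and without CD71-positive array 1 (0.0984) or 3 (0.0651), among others, so in wild type only Ldb1 of the partners passed in every alternative. Zfp143 and Patz1 did not pass in either genotype. Their levels were at most 5.70, near the lower end of the scale, so a lack of change is not shown.

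The related SMC complexes were mostly higher in CD71-positive cells. Of 6 tested condensin genes 5 were higher in each genotype, from 0.82 for Ncapg2 to 3.03 for Ncaph in wild type, the latter being the kleisin of condensin I. Ncapg2 read 5.39 to 5.43 on wild-type CD71-negative arrays, near the lower end of the scale, so the offset compresses its difference. Smc2, the shared arm, was detected on 3 arrays and differed by -0.01 in wild type. Of 4 tested Smc5/6 genes 3 were higher in each genotype, with Nsmce2, a SUMO ligase, at 1.01 (adjusted p = 4.59e-07) in wild type and 1.00 (adjusted p = 6.3e-07) in mutant. Smc5, listed as Smc5l1, did not pass, at -0.06 and -0.02. The call for Smc6, at 0.26 (adjusted p = 0.0472) in wild type and 0.26 (adjusted p = 0.0406) in mutant, was made in only 7 and 12 of 24 alternatives, and in wild type it was lost with the replicate block (adjusted p = 0.0543). With median centring none of the Smc5/6 genes passed in either genotype, the adjusted p of Nsmce1, Nsmce2 and Smc6 being 0.120, 0.0516 and 0.117 in wild type and 0.177, 0.118 and 0.191 in mutant. Of the 4 meiotic cohesin entries 2 were tested, and Stag3 passed in mutant only, at 0.11 (adjusted p = 0.0229) against 0.09 (adjusted p = 0.0645) in wild type. For Stag3 the difference between genotypes did not pass. Smc2, Smc5 and Stag3 read at most 5.79 on any array, near the lower end of the scale. There the offset compresses changes, so their differences do not bound the change in RNA.

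**Figure D4:**
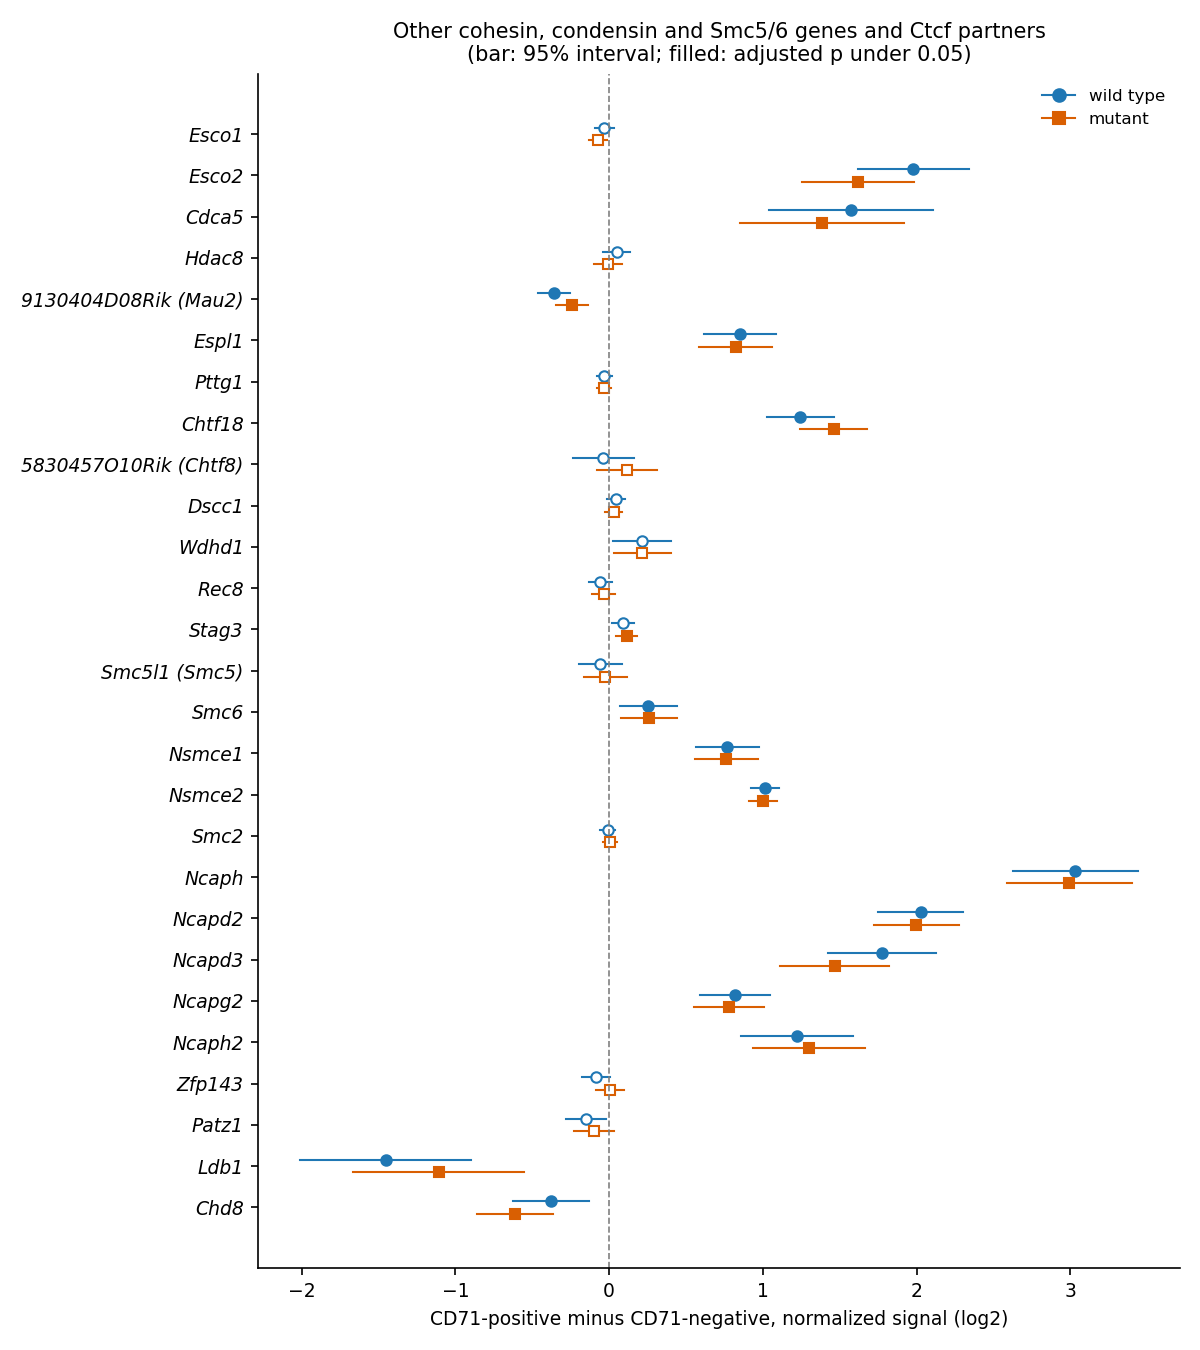
Difference in normalized log2 signal between CD71-positive and CD71-negative cells (horizontal axis) for the 27 tested genes of the wider list, with 95% intervals; blue circles are wild type, orange squares mutant, and filled symbols passed at an adjusted p under 0.05. Ncaph lies farthest to the right, at 3.03 in wild type, and Ldb1 farthest to the left, at -1.45.

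Markers of proliferation and of cell type moved with CD71 as well. Of 7 tested proliferation markers 5 were higher in CD71-positive cells of each genotype, Top2a among them (4.66 in wild type and 3.44 in mutant), and the sum of their linear normalized signals was 383 to 620 on CD71-negative and 2945 to 3706 on CD71-positive arrays. Markers of thymocytes positive for CD4 and CD8 were lower, 7 of 9 tested in each genotype, including Cd4, Cd8b1 and Rag1. Ptcra, the pre-T-cell receptor alpha chain, ran the other way, higher by 0.13 (adjusted p = 0.0322) in wild type, and in mutant it read 0.07 (adjusted p = 0.224). Ptcra levels lay between 5.47 and 5.67, near the lower end of the scale, where the offset compresses changes. The summed level of the list was 17003 to 19333 on CD71-negative arrays and 7302 to 10194 on CD71-positive arrays, with Cd8a at 0 detected arrays. Myeloid and dendritic markers had 0 of 7 tested called in wild type and 5 called higher in mutant. Their median difference was 0.45 in wild type and 1.10 in mutant. Between genotypes 0 of 7 passed in CD71-positive cells, and 0 of 7 in the difference of the genotype effect between subsets. A rise particular to mutant is therefore not shown. The summed level of the 10 entries was 427 to 456 on CD71-negative, 506 to 632 on wild-type CD71-positive and 682 to 2015 on mutant CD71-positive arrays, with Itgax detected on none. Over all 12 arrays the erythroid sum of 4 entries ran from 167 to 172, the B-cell sum of 3 from 128 to 145 and the thymic epithelial sum of 3 from 125 to 132. Hbb-b1 and Krt5 were among the entries detected on none. Only 1 B-cell entry was tested, Cd79b. It was called lower in CD71-positive cells of mutant (-0.29) and not called in wild type (-0.19). An undetected entry still adds its background level to a sum. With 0 of 4 erythroid entries detected, the wild-type CD71-negative arrays summed to 169 to 172. The myeloid and dendritic sums hold such background too, so ratios of these sums understate a change in the markers. The part of the marker shifts in the cohesin and Ctcf differences was not tested.

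Between genotypes, no member passed. In mutant minus wild type, 0 of 6 passed in CD71-negative cells and 0 of 6 in CD71-positive cells, against 0.424% of all tested genes in each. In the average over both subsets 0 of 6 passed against 0.909%, and in the difference of the genotype effect between subsets 0 of 6 against 0.0121%. At an unadjusted p under 0.05 in limma, 1, 1, 3 and 0 of the 6 members were found in these 4 contrasts, against 10.4%, 8.55%, 13% and 5.65% of all tested genes. The genotype contrasts use the same 4 groups as the CD71 contrasts and are not independent of them.

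Nipbl had the lowest genotype difference among the members. Mutant cells read -0.55 (SE 0.23, 95% interval -1.07 to -0.04, unadjusted p = 0.0376 in limma, adjusted p = 0.434) in the CD71-negative subset and -0.51 (SE 0.23, -1.03 to -0.0010, unadjusted p = 0.0496 in limma, adjusted p = 0.581) in the CD71-positive subset. Every mutant CD71-positive array, at most 7.88, lay below every wild-type CD71-positive array, at least 7.95, whereas the CD71-negative arrays overlapped. Without mutant CD71-negative array 1 the CD71-negative value was -0.32 (adjusted p = 0.698). On mutant CD71-positive arrays the myeloid and dendritic sum was also higher than on wild-type ones, as given above. Of its tested markers 0 of 7 passed between genotypes there, and the part of the sum in the Nipbl difference was not tested. Nipbl and Rad21 are annotated on chromosome 15, as is the mutated Ncaph2. Rad21, near the lower end of the scale, averaged -0.02 between genotypes. Stag2 and Ctcf, the members with the next lowest averages, are annotated on chromosomes X and 8. Whether inheritance together with the mutant allele has a part in the Nipbl difference was not tested. The Nipbl average was -0.53 (SE 0.16, 95% interval -0.90 to -0.17, unadjusted p = 0.0088 in limma, adjusted p = 0.182), the 28th lowest of 8247. It was negative in 23 of 23 alternative analyses and passed in 1, with array weights, where it was -0.50 (adjusted p = 0.0389) and 554 genes passed in place of 75.

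Stag2 and Ctcf were also lower on average in mutant cells without passing. Stag2 differed by -0.33 (95% interval -0.72 to 0.05) in CD71-negative, where the mutant arrays lay below all wild-type arrays, and by -0.27 (-0.66 to 0.11) in CD71-positive cells, where the arrays overlapped. Leaving out 1 array moved the CD71-positive value of Stag2 from -0.12 (without mutant array 2) to -0.44 (without mutant array 3), with -0.17 and -0.43 without wild-type arrays 3 and 2. Its average was -0.30 (-0.58 to -0.03, adjusted p = 0.331). Ctcf differed by -0.20 (-0.51 to 0.10) and -0.26 (-0.56 to 0.05), with overlapping arrays in both subsets. The CD71-positive value of Ctcf was -0.10 without wild-type array 2 and -0.40 without wild-type array 3. Its average was -0.23 (-0.45 to -0.01, adjusted p = 0.354). Smc1a averaged -0.02 (-0.25 to 0.20), Smc3 0.01 (-0.17 to 0.19) and Rad21 -0.02 (-0.09 to 0.05), and the sign of the first pair changed between alternatives. Aprin averaged -0.18 (-0.41 to 0.05).

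The CD71 difference itself was compared between genotypes. The genotype effect in CD71-positive cells minus that in CD71-negative cells was 0.17 (95% interval -0.28 to 0.62) for Smc1a, 0.06 (-0.48 to 0.61) for Stag2, 0.04 (-0.69 to 0.76) for Nipbl and -0.05 (-0.49 to 0.38) for Ctcf. These intervals include 0 and also include differences of 0.38 or more, so similar CD71 differences in the 2 genotypes are not shown. None of the 27 tested genes of the wider list passed in any of the 4 genotype contrasts.

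**Figure D5:**
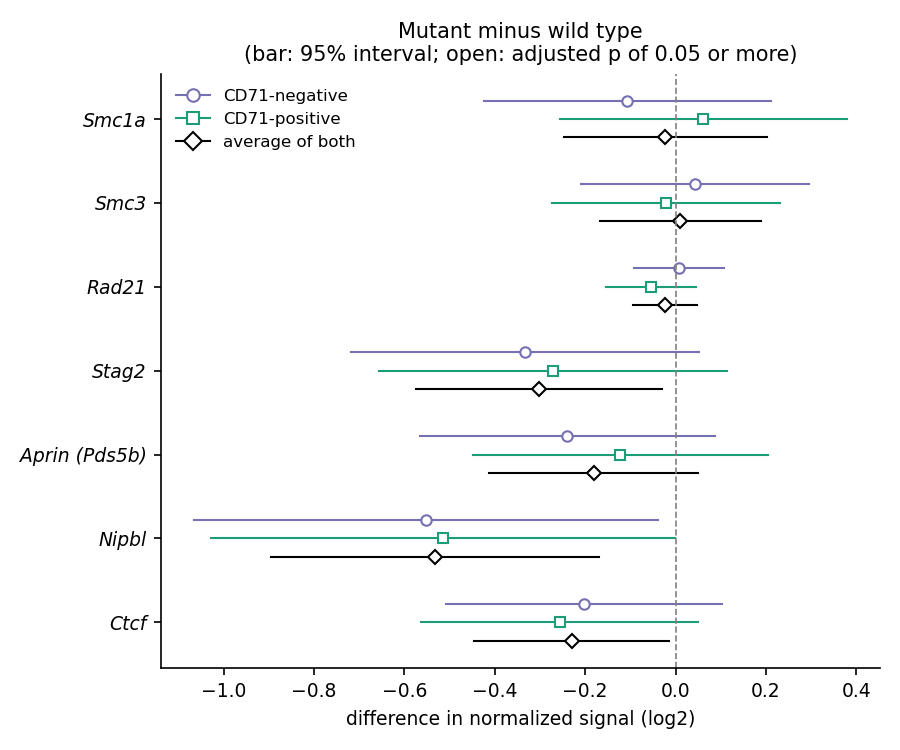
Mutant minus wild type in normalized log2 signal (horizontal axis) for each tested gene, with 95% intervals; circles are CD71-negative cells, squares CD71-positive cells and diamonds the average, all open because none passed at an adjusted p under 0.05. Nipbl lies lowest, with an average of -0.53.

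The order of the group means differed among the members. For Smc1a, both CD71-positive groups overlapped each other and stood clear of the CD71-negative groups, which also overlapped. Ctcf had the same arrangement, with wild-type CD71-positive at 8.92 ± 0.30, mutant CD71-positive at 8.66 ± 0.07, wild-type CD71-negative at 8.11 ± 0.17 and mutant CD71-negative at 7.91 ± 0.01 (SD, n = 3). Stag2 ran in that order too, and its wild-type and mutant CD71-negative groups did not overlap. Nipbl ran from 8.88 ± 0.21 in wild-type CD71-negative through 8.33 ± 0.43 in mutant CD71-negative and 8.01 ± 0.10 in wild-type CD71-positive to 7.50 ± 0.33 in mutant CD71-positive cells, where only the last pair of neighbours did not overlap.

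The genes whose pattern over the 12 arrays came closest to each member were found by the root mean square difference of mean-centred log2 levels, among 3831 or 3832 other annotated genes detected on all arrays. Closest to Smc1a were Dpagt1 (0.13) and Fads1 (0.16), against an SD of 0.82 for Smc1a itself over the 12 arrays. Closest to Stag2 were Cibar1, listed as 6720467C03Rik (0.18), and Srsf1, listed as Sfrs1 (0.20), against an SD of 0.56. Nipbl came closest to Prkcb (0.15) and Tlk2 (0.17), against 0.58, and Ctcf to Mast2 (0.12) and Cse1l (0.13), against 0.45. For Aprin these were Tdrkh (0.11) and Ncbp3, listed as 1200014J11Rik (0.12), against 0.34. For Smc3 and Rad21, whose SDs of 0.13 and 0.06 were small, the genes named are Nfatc2ip (0.07) and Nemp2 (0.07) for Smc3 and Pip4p2 (0.04) for Rad21, which says little more than that all of them varied little.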

How the data were processed

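The authors deposited non-normalized intensities on a linear scale, each beside a detection p-value, per the file headers: 18138 symbols on 12 arrays. Their second deposited table holds processed intensity values of 18132 symbols, and RMA is named per the submitters' processing notes. Its column medians lie between 77.2 and 78.7 and its ranks equal those of the signal (Spearman correlation 1), so it is linear, uncentred and of the same direction, with its background step unknown. Labelling with biotin started from 80 ng of RNA, per the labels' protocols. The array's probes, their summary to symbols and the genome build are not given in the sources used here. Symbols matched RefSeq annotation of GRCm38.p6 directly for 14307 entries, as a synonym for 2906 and not at all, or not to 1 gene, for 925. There were 0 columns of other samples, and no 2 arrays were identical.

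From these, neqc (limma 3.58.1, R 4.3.3) estimated each array's background through the detection p-values and gave quantile-normalized log2 values with an offset of 16. A gene entered the tests if 3 or more arrays had it at a detection p under 0.05. The limma model (lmFit, eBayes) held a mean for each of the 4 groups and was tested two-sided, with Benjamini-Hochberg adjustment over all 8247 tested genes in each of 6 contrasts. The number of arrays limits the precision. The fit was tested on simulated data. A gene detected on no array of a group is given as a bound.

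The members, lists and motifs were chosen with earlier results of these data known. All members, all tested genes of the wider list and the 2 genes most like each member may be named. Some genes that this rule or the marker lists take are not reported here. The alternatives were another background, the authors' values, cyclic loess, median centring, 2 other filters, 2 other variance models, fits on the compared arrays only, a replicate block and leaving out each array. Array brightness as a covariate and the fit without the 2 dimmest arrays were added after the data had been seen.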

Additional observations from a re-analysis of the deposited data

How the results depend on the processing

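In each genotype 4 of 6 members passed between CD71 subsets. That count was 3 to 4 when each array was left out in turn, and 0 in wild type and 0 in mutant with median centring. The signs for Smc1a, Stag2, Ctcf, Nipbl and Aprin between CD71 subsets held in all 24 alternatives in both genotypes. The 4 genotype counts were 0 under the alternatives run, with 1 exception: array weights gave 1 member in the average over subsets, Nipbl. The replicate block is a term shared by the same-numbered arrays of all 4 groups, and it does not pair the subsets within a genotype. With it, 4 members passed in each genotype and 0 between genotypes, and 2064 and 2367 genes passed between CD71 subsets in place of 2067 and 2375. Replicate numbers are not taken to pair the samples, since the labels state no pairing. Of 18 correlations between the deviations of same-numbered arrays, 11 were over 0.1 (range -0.41 to 0.59). Between the subsets of 1 genotype they were -0.41, 0.39 and 0.26 in wild type and 0.51, -0.30 and 0.50 in mutant. The others cross genotypes, and differently numbered arrays were not compared, so these correlations cannot decide whether samples were paired. Fits on the compared arrays only were not run for the average or the difference of differences, which need all arrays. Scaling moved the median of all tested genes by less than 0.1 in each contrast.

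Of 994 recomputed differences 54 changed sign, and 0 of these passed. Smc3 between mutant CD71 subsets, 0.056 as reported, was -0.041 with array weights and -0.050 to 0.12 with 1 array left out. Rad21 between mutant CD71 subsets, 0.015 as reported, was -0.0062 with authors' processed values, -0.014 with array weights and -0.019 to 0.039 with 1 array left out. Smc3 between genotypes in CD71-negative cells, 0.043 as reported, was -0.049 with the brightness covariate and -0.0012 to 0.11 with 1 array left out. Rad21 between genotypes in CD71-negative cells, 0.0073 as reported, was -0.015 with median centring, -0.022 with the brightness covariate, -0.0059 with the 2 dimmest arrays left out and -0.016 to 0.042 with 1 array left out. Smc1a between genotypes in CD71-positive cells, 0.062 as reported, was -0.044 with median centring and -0.038 to 0.15 with 1 array left out. Smc3 between genotypes in CD71-positive cells, -0.022 as reported, was 0.042 with the 2 dimmest arrays left out and -0.13 to 0.063 with 1 array left out. Smc1a in the genotype average, -0.022 as reported, was 0.025 with authors' processed values and -0.11 to 0.021 with 1 array left out. Smc3 in the genotype average, 0.011 as reported, was -0.0033 with cyclic loess, -0.0055 with median centring, -0.026 with the brightness covariate and -0.042 to 0.053 with 1 array left out. Smc3 in the difference of differences, -0.065 as reported, was 0.047 with the brightness covariate, 0.033 with the 2 dimmest arrays left out and -0.17 to 0.019 with 1 array left out. Stag2 in the difference of differences, 0.062 as reported, was -0.049 with authors' processed values, -0.13 with median centring, -0.022 with array weights and -0.10 to 0.21 with 1 array left out. Nipbl in the difference of differences, 0.038 as reported, was -0.023 with cyclic loess, -0.30 with median centring, -0.30 with array weights and -0.20 to 0.23 with 1 array left out. Ctcf in the difference of differences, -0.054 as reported, was -0.20 to 0.10 with 1 array left out. Aprin in the difference of differences, 0.12 as reported, was -0.094 with median centring, -0.052 with array weights and -0.015 to 0.22 with 1 array left out. The cause was not tested. Smc3, Rad21 and Stag1 lay near background, which limits what their values can show.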
